A study of Homo sapiens with 45 samples.

Results

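The unfolded protein response and the protein folding machinery of the endoplasmic reticulum (ER) were followed through 32 named genes, taken as a list of gene symbols. The genes were measured in SUDHL6, a human cell line from a diffuse large B cell lymphoma, after delivery of small interfering RNAs (siRNAs) against candidate master regulators of transcription. A probe was listed for 30 of the 32 genes, 26 were above background and were tested, and 8625 genes were tested in all. SEC61G and HERPUD1 had no listed probe. ERN1, the sensor that splices XBP1 mRNA, PDIA3, a thiol oxidoreductase, SEL1L, the scaffold of the HRD1 ubiquitin ligase, and DERL3, a protein of the retrotranslocation channel, were above background on 0, 0, 1 and 1 of 45 arrays and were not tested.

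Cells received 80 pmol of a pooled siRNA by nucleofection, and RNA was taken 20 hours later. The arrays fall into 2 sets, because the titles of some samples carry a letter A whose meaning is not given. In the first set, siRNAs against HMGA1, FOXM1, TFDP1 or ATF5 (3 arrays each) stand against the nontargeting control siNT4 (4 arrays). The pairs siHMGA1+siFOXM1 (3 arrays), siHMGA1+siTFDP1 (4), siHMGA1+siATF5 (3) and siTFDP1+siATF5 (2, of which 1 was fitted) stand against siNT4+siNT4 (2). In set A, siFOXM1, siNFYB, siNFYB+siFOXM1, siNT4 and siNT4+siNT4 had 3 arrays each. The groups of set A are written with the suffix _A below. Every array came from the same cell line, so other lymphomas are not represented, and in a bulk sample fewer cells of a type and less RNA per cell cannot be told apart. The labels do not say whether replicate arrays came from different cultures. The p-values therefore reflect differences among these arrays, and those may be technical.

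The ER folds secreted and membrane proteins, and B lineage cells enlarge this capacity when they turn to antibody secretion. When unfolded proteins accumulate, the sensors IRE1 (ERN1), PERK (EIF2AK3) and ATF6 are released from the chaperone BiP (HSPA5). PERK slows translation, ATF6 is cut to a transcription factor, and IRE1 splices XBP1 mRNA into the form that encodes an active factor. ATF6 and XBP1 then raise chaperones, disulphide enzymes, translocation subunits and the machinery of ER-associated degradation. The best described promoter element of this response, the ER stress element (ERSE), joins a CCAAT box, read by the NF-Y complex, to a CCACG box, read by ATF6 or XBP1. NFYB is a subunit of NF-Y, and FOXM1 is a transcription factor of cell cycle genes.

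Because NFYB was a silencing target, the members' promoters were searched for these elements in RefSeq windows of build GRCh38.p14, from 250 bases before to 50 bases after each annotated start. Windows were available for 29 of the 32 members. The ERSE was searched as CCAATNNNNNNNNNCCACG, the related ERSE-II as ATTGGNCCACG and the UPRE as TGACGTGG, each on both strands. The ERSE was found in 7 members and in 0.0916% of the 27305 genes with a window. The ERSE-II was found in 3 members and in 0.0696% of these genes, and the UPRE in 1 member and in 0.927%. The ERSE and ERSE-II matches are shown because these elements were more frequent among the members than among all genes, though most members had neither. The members were listed as genes of the response to which the ERSE belongs, so this frequency is a description and not a test. Capitals mark the fixed letters of the element, and each match is written 5′ to 3′ on the strand given.
HSPA5, chr9:125241391-125241409, minus strand: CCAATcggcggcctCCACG
XBP1, chr22:28800603-28800621, minus strand: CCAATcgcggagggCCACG
HSP90B1, chr12:103930216-103930234, plus strand: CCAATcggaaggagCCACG
HSP90B1, chr12:103930321-103930339, minus strand: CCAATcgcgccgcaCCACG
CALR, chr19:12938384-12938402, minus strand: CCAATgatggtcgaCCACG
CANX, chr5:179698778-179698796, plus strand: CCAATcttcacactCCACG
PDIA6, chr2:10812853-10812871, minus strand: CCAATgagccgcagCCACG
CRELD2, chr22:49918554-49918572, minus strand: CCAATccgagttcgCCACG
HYOU1, chr11:119057380-119057390, plus strand: ATTGGaCCACG
HYOU1, chr11:119057274-119057284, plus strand: ATTGGaCCACG
HERPUD1, chr16:56932025-56932035, plus strand: ATTGGgCCACG
SDF2L1, chr22:21642114-21642124, minus strand: ATTGGtCCACG

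All 7 ERSE members encode a transcription factor, a chaperone or a folding enzyme, and no member of the translocation group had a match. The HSP90B1 window held the ERSE in both orientations. The UPRE match of HYOU1 lay at chr11:119057386-119057393 on the minus strand and overlapped an ERSE-II. A plain CCAAT box stood in 25 of the 29 members with a window, against 39.7% of all genes with one; the ERSE contains this box and the ERSE-II contains its reverse complement. The stretches of 250 bases before the starts of HSPA5, XBP1 and HYOU1 are given as examples of members that bear an ERSE or ERSE-II. The fixed letters of these elements are in capitals, and each stretch is read on the gene's own strand. They lie at chr9:125241344-125241593, chr22:28800570-28800819 and chr11:119057206-119057455, all on the minus strand.
HSPA5: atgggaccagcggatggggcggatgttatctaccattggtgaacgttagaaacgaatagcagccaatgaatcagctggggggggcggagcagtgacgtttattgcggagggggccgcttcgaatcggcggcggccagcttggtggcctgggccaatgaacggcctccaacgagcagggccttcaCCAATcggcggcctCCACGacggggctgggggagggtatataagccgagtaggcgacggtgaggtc
XBP1: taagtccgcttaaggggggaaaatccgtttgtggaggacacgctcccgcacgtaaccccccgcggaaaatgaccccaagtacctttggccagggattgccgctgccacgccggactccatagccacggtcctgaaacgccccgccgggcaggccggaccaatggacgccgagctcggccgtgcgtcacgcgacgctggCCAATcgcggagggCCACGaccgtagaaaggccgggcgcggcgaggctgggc
HYOU1: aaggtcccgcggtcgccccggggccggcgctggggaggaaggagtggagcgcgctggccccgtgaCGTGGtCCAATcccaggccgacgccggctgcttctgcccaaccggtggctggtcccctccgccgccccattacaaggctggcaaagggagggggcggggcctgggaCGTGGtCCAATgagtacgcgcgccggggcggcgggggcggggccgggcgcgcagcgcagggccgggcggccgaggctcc

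The plot of element positions sets these matches beside each other. The ERSE of HSPA5 began 66 bases before the start and that of XBP1 52 bases before it, while the elements of HYOU1 and HSP90B1 each occurred at a distal and a proximal position. A match describes the letters only; binding was not measured here.

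**Figure D1:**
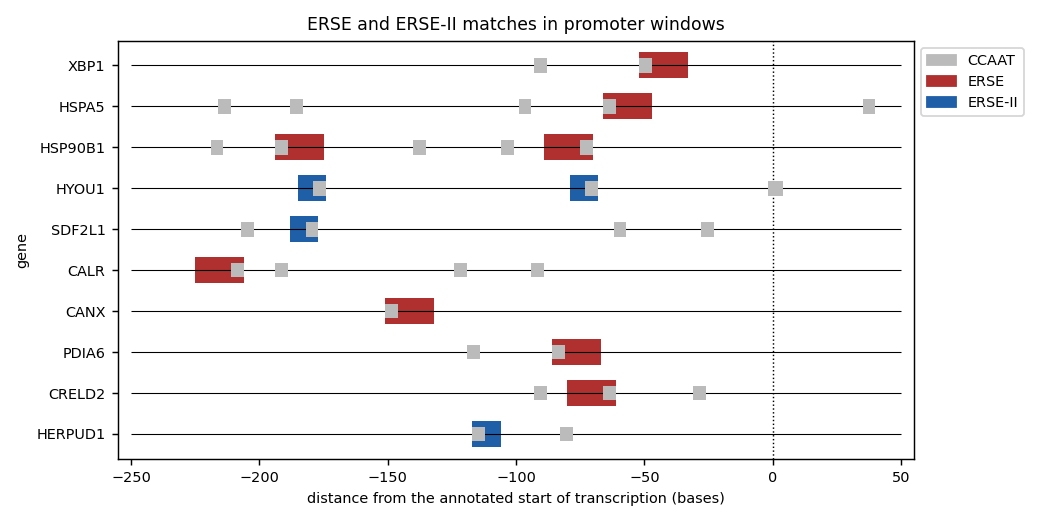
Position in bases relative to the annotated start (horizontal axis) of ERSE, ERSE-II and CCAAT matches in the windows of 10 members (vertical axis), each mark a match. HSPA5 has an ERSE at -66 and XBP1 at -52, while HYOU1 has 2 ERSE-II matches, at -185 and -79.

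Values are on the authors' log2 scale, on which the 45013 probes of the 45 arrays ran from 6.278 to 16.28. On 44 arrays 24.2% to 30.6% of probes were above background and each array's median correlation with the others was 0.975 to 0.993. The remaining array, siTFDP1+siATF5 replicate 3, had 44.5% of probes above background and a median correlation of 0.694, and it was left out of the fit. The silenced genes were checked first. HMGA1 changed by -1.55 (log2) in siHMGA1 and TFDP1 by -1.06 in siTFDP1. On the arrays labelled siATF5, ATF5 changed by -0.69 and TFDP1 by -1.86, so these arrays do not separate ATF5 from TFDP1 (limma adjusted p at most 0.00284 for these 4 changes). FOXM1 differed by -0.27 in siFOXM1, -0.19 in siFOXM1_A and -0.26 in siNFYB+siFOXM1_A and did not pass the threshold (adjusted p at least 0.297). The groups of set A are therefore described by their labels. Below, a silenced group or array is one labelled with a targeting siRNA, whether or not its target was lower. NFYB lay near the lower limit of the scale, at a mean of 7.30 in siNFYB_A and 7.37 in siNT4_A, and of 7.55 in siNFYB+siFOXM1_A and 7.43 in siNT4+siNT4_A. The difference in the pair ran against the label, and the array does not check the silencing of NFYB. In the first-set pairs HMGA1 differed by -1.06 in siHMGA1+siFOXM1, -0.48 in siHMGA1+siTFDP1 and -1.39 in siHMGA1+siATF5. FOXM1 differed by -0.38 in siHMGA1+siFOXM1, and TFDP1 by -0.63 in siHMGA1+siTFDP1 and -0.76 in siTFDP1+siATF5, which rests on 1 array. On that array ATF5 was at 10.28, just below the control range of 10.29 to 10.63. Only 1 of all tested genes passed the threshold in siHMGA1+siFOXM1 and 1 in siHMGA1+siTFDP1. The targets of each of these pairs therefore did not both pass. In siHMGA1+siATF5, ATF5 lay at 10.28 to 10.44, inside the control range of 10.29 to 10.63 but for 1 array (difference -0.10), and TFDP1 differed by 0.00, so neither was lower there past the threshold. The array labelled siHMGA1+siTFDP1 replicate 1 had HMGA1 at 11.27, inside the controls' range, against 10.58 to 10.70 on the other arrays of its group, so results on that group are also given without it. B cell and germinal centre markers were above background (4 of 5 and 4 of 4 with a probe), 0 of 6 T cell and 0 of 5 stromal or epithelial markers were, and 3 of 6 myeloid markers were.

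None of the 26 tested members passed the threshold, a limma adjusted p under 0.05 over all 8625 genes, in any of the 11 comparisons of a silenced group with its control. The comparisons had the precision to bound the changes. The 95% intervals of all 26 members lay within 1 log2 unit of 0 in each of them. In the 10 comparisons with more than 1 silenced array, the intervals of 22 to 26 members lay within 0.5 units, against 82.7% to 98.2% of all genes. The heatmap of changes shows the members by role.

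**Figure D2:**
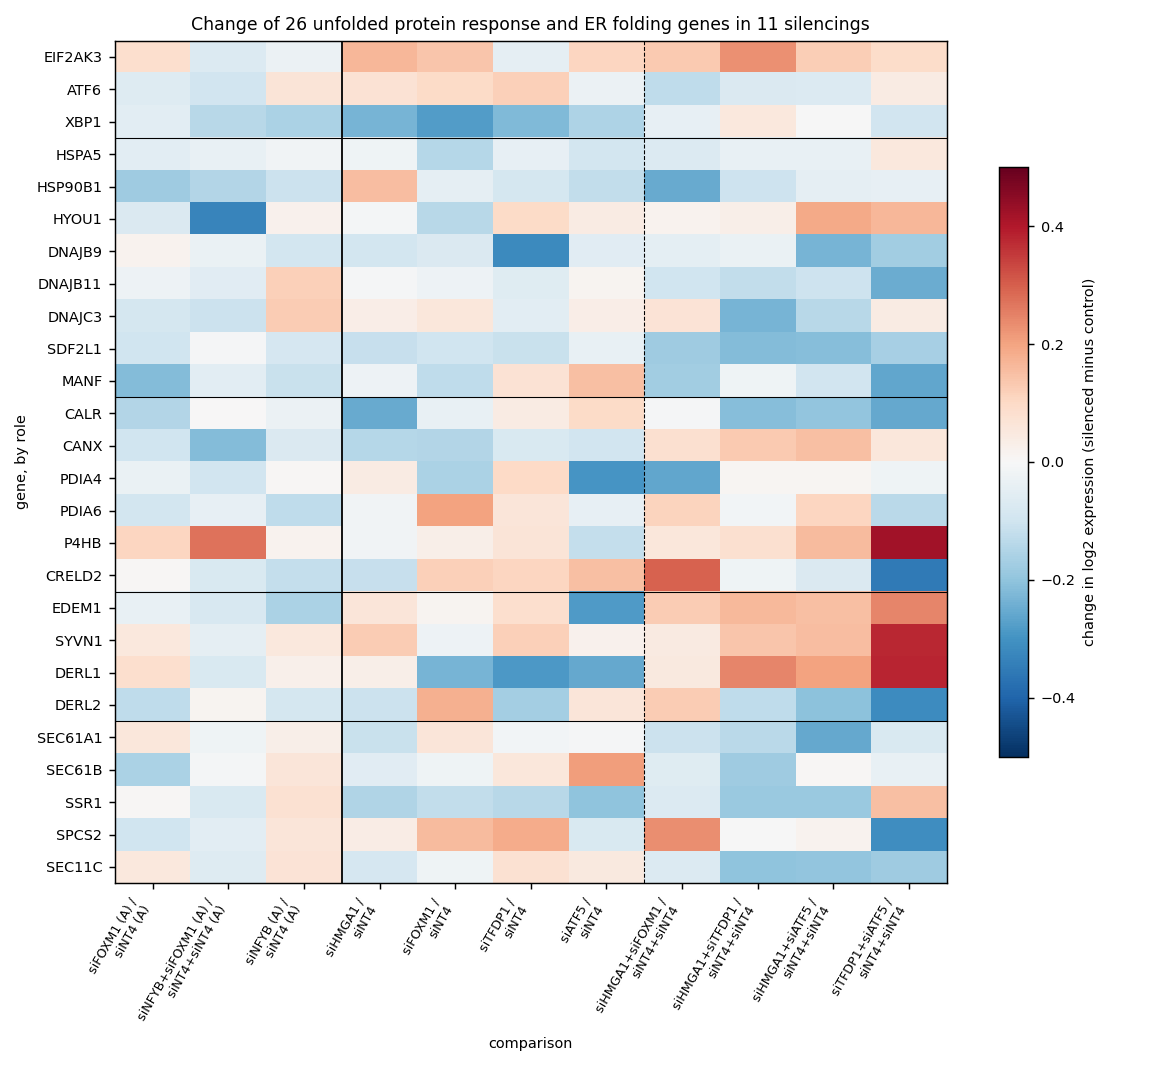
Log2 change of each of the 26 tested members (rows, grouped by role) in each of the 11 silencing comparisons (columns), with blue for lower and red for higher on a scale from -0.5 to 0.5. No cell passes the adjusted threshold; siNFYB+siFOXM1_A has 23 of 26 members below its control, with a median of -0.06.

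On the set A arrays labelled siFOXM1, the folding genes lay within 0.22 log2 units of the control. Of 26 members, 17 were lower than siNT4_A and the median change was -0.05, against 51.7% of all genes lower and a median of 0.00. No member and 0% of genes passed the adjusted threshold in either direction; 1 member reached an unadjusted p under 0.05, against 2.27% of genes. The arrays of 2 members lay wholly below the controls (5.48% of genes) and those of 0 members wholly above (4.54%).

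MANF, a secreted factor that is retained in the ER and assists BiP, had the smallest p. MANF was at 11.28, 11.19 and 11.26 in siFOXM1_A and at 11.52, 11.48 and 11.39 in siNT4_A. The groups did not overlap and the difference was -0.22 (SE 0.09, limma adjusted p = 1.00). The control siNT4+siNT4_A lay between them, at 11.34, 11.29 and 11.31, above every siFOXM1_A array and below every siNT4_A array.

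SEC61B, the beta subunit of the translocation channel, stood at 12.71, 12.68 and 12.54 in siFOXM1_A and at 12.83, 12.84 and 12.74 in siNT4_A. Its groups did not overlap either, with a difference of -0.16 (SE 0.11). HSP90B1, the ER paralogue of HSP90, was at 10.92, 11.00 and 11.19 against 11.42, 11.26 and 10.96. Here the groups overlapped and the difference was -0.18 (SE 0.12). HSPA5 (BiP), the central chaperone of the response, was at 8.64, 8.81 and 8.58 against 8.71, 8.69 and 8.80. The HSPA5 groups overlapped over most of their range, with a difference of -0.05. The limma adjusted p was 1.00 for each of these members.

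Among the roles, 7 of the 8 chaperones and cofactors (HSPA5, HSP90B1, HYOU1, DNAJB9, DNAJB11, DNAJC3, SDF2L1 and MANF) were lower in siFOXM1_A, with a median of -0.08. DNAJB9, a J-domain cofactor of BiP, was the exception at 0.02. The sensors and XBP1 ran from -0.06 for ATF6 to 0.09 for EIF2AK3. The second XBP1 probe lay outside this range, at -0.19 against -0.05 for the probe used. The lectins and disulphide enzymes ran from -0.15 for CALR, the soluble lectin chaperone, to 0.11 for P4HB, a protein disulphide isomerase. In ER-associated degradation 2 of 4 members were lower, from -0.13 for DERL2 to 0.08 for DERL1, both Derlin proteins of the retrotranslocation complex. The second DERL2 probe differed by 0.08, in the other direction from the first.

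**Figure D3:**
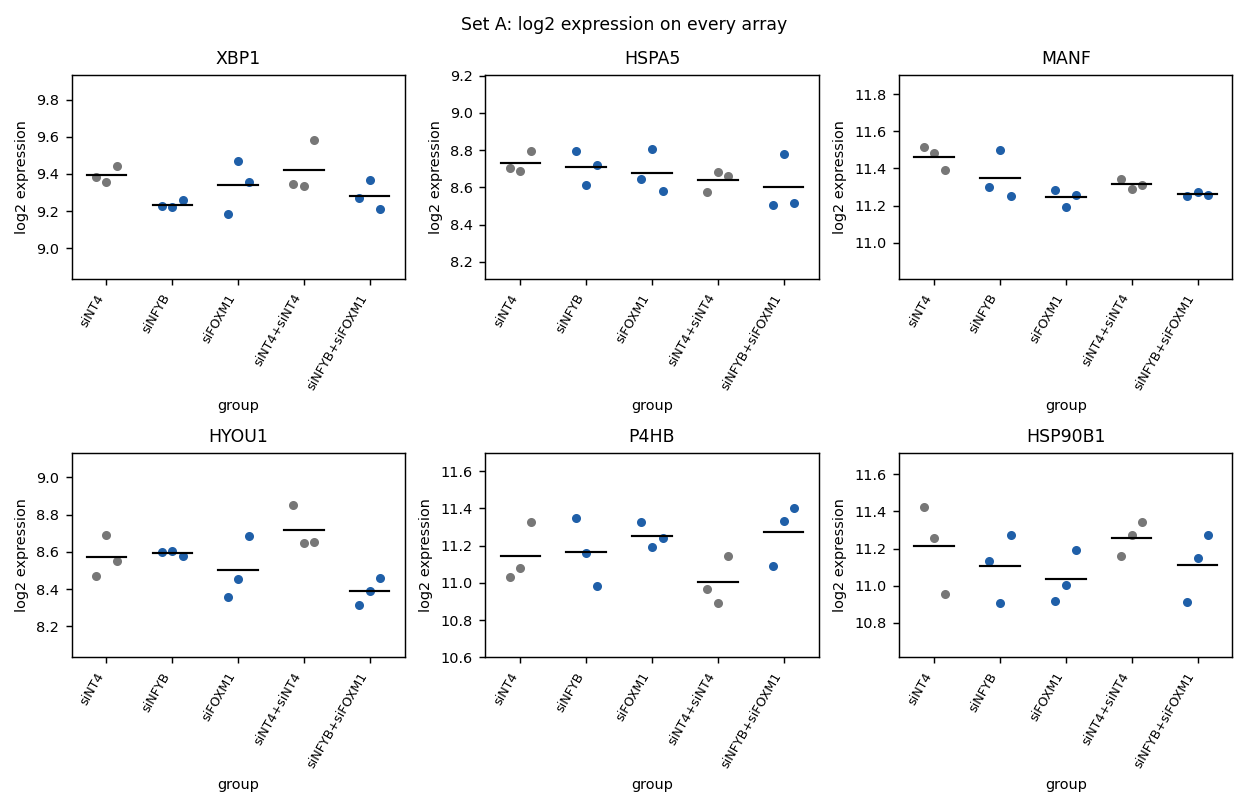
Log2 value of XBP1, HSPA5, MANF, HYOU1, P4HB and HSP90B1 (vertical axes) on every array of the 5 groups of set A (horizontal axis), with controls in grey, silenced groups in blue and a line at each mean. MANF is at 11.19 to 11.28 in siFOXM1_A and at 11.39 to 11.52 in siNT4_A, and HYOU1 at 8.31 to 8.46 in siNFYB+siFOXM1_A and at 8.65 to 8.85 in siNT4+siNT4_A.

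On the arrays labelled siNFYB+siFOXM1, 23 of 26 members were lower than in siNT4+siNT4_A, against 51.0% of all genes. The shifts were small: the median change was -0.06, against 0.00 over all genes, and the members ran from -0.33 for HYOU1 to 0.27 for P4HB. No member passed the adjusted threshold, and 0.0116% of genes passed it upward and 0% downward. An unadjusted p under 0.05 was reached by 2 members, against 2.57% of genes. The arrays of 3 members lay wholly below the controls (5.53% of genes) and those of 0 wholly above (5.11%).

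HYOU1, an ER chaperone of the HSP70 family that acts as a nucleotide exchange factor for BiP, was at 8.31, 8.39 and 8.46 in siNFYB+siFOXM1_A and at 8.85, 8.65 and 8.65 in siNT4+siNT4_A. Every silenced array lay below every control array, and the difference was -0.33 (SE 0.11, limma adjusted p = 1.00). The second HYOU1 probe differed by 0.06, in the other direction. In siFOXM1_A its 2 probes differed by -0.07 and -0.16, and in siNFYB_A by 0.02 and 0.16. HYOU1 is the member with 2 ERSE-II matches, printed above, and their part in these values was not tested.

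P4HB was at 11.09, 11.33 and 11.40 against 10.97, 10.89 and 11.15. The groups overlapped, and the difference was 0.27 (SE 0.11, limma adjusted p = 1.00). CANX, the membrane-bound lectin chaperone, was at 8.36, 8.45 and 8.05 against 8.47, 8.53 and 8.50. The silenced CANX arrays all lay below the controls, with a difference of -0.22 (SE 0.11). MANF was the third member without overlap, at 11.25, 11.28 and 11.26 against 11.34, 11.29 and 11.31, a difference of -0.05.

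Every chaperone and cofactor (8 of 8, median -0.05), every translocation or signal peptidase member (5 of 5, median -0.05) and every sensor or transcription factor (3 of 3, median -0.09) was below the control in the pair. XBP1 differed by -0.14 and its second probe by -0.29. The translocation members were SEC61A1 and SEC61B of the channel, SSR1 of the translocon-associated complex, and SPCS2 and SEC11C of the signal peptidase. In ER-associated degradation 3 of 4 were lower, EDEM1, SYVN1 and DERL1, with DERL2 at 0.01 and its second probe at -0.08. The lectin and disulphide group was mixed: 4 of 6 were lower, including PDIA4 and PDIA6, and CALR differed by 0.00. Averaged over the 26 members, the 3 arrays of the pair lay at 9.81 to 9.83 and the 3 of its control at 9.85 to 9.91. The value of B cell marker genes, averaged in the same way over 4 genes, was 12.31 to 12.36 in the pair and 12.38 to 12.45 in the control. Plasma cell markers (5 genes) were at 9.27 to 9.31 against 9.13 to 9.24, germinal centre markers (4 genes) at 11.18 to 11.22 against 11.17 to 11.24, and myeloid markers (3 genes) at 8.29 to 8.47 against 8.42 to 8.55. The part of these lists in the result was not tested, and none of their genes passed the threshold.

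The arrays labelled siNFYB alone showed no common direction, with 13 of 26 members lower and a median of -0.01 (51.9% of all genes, median -0.01). No member and 0% of genes passed the adjusted threshold in either direction, and 0 members reached an unadjusted p under 0.05, against 1.65% of genes. XBP1, the transcription factor of the response, was lowest: 9.22, 9.22 and 9.26 in siNFYB_A against 9.38, 9.36 and 9.44 in siNT4_A. These groups did not overlap (1 member, 4.94% of genes), and the difference was -0.16 (SE 0.10, limma adjusted p = 1.00). The second XBP1 probe differed by -0.12.

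EDEM1, the lectin that hands misfolded glycoproteins to degradation, differed by -0.16 (SE 0.11) and MANF by -0.11 (SE 0.09) in siNFYB_A. DNAJB11, a BiP cofactor, was the 1 member wholly above its controls (4.39% of genes), at 11.05, 11.16 and 11.04 against 11.03, 10.98 and 10.88. All 5 translocation members were above the control, by 0.03 to 0.08. siFOXM1_A and siNFYB_A share their control arrays.

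The 9 tested members with an ERSE or ERSE-II can be set beside the 16 with a window and neither element. In siNFYB_A, 8 of the 9 were lower (median -0.08), against 5 of the 16 (median 0.04). In siFOXM1_A, 8 of 9 were lower (median -0.09) against 9 of 16 (median -0.03), and in the pair 8 of 9 (median -0.08) against 14 of 16 (median -0.05). Between the controls siNT4_A and siNT4, in which no target was silenced, 8 of the 9 were also lower in set A (median -0.09), against 10 of the 16 (median -0.08). In siHMGA1, siFOXM1, siTFDP1 and siATF5, 8, 7, 5 and 6 of the 9 were lower, with medians of -0.11, -0.10, -0.04 and -0.04. Of the 16, 9, 8, 7 and 8 were lower, with medians of -0.01, 0.00, 0.06 and 0.00. In siHMGA1+siFOXM1, siHMGA1+siTFDP1 and siHMGA1+siATF5, 5, 6 and 6 of the 9 were lower (medians -0.01, -0.02 and -0.04). Of the 16, 9, 11 and 9 were lower there (medians -0.06, -0.05 and -0.08). On the 1 fitted array of siTFDP1+siATF5 the medians were -0.09 for the 9 and -0.03 for the 16. Between siNT4+siNT4 and siNT4, 6 of the 9 were lower in the former (median -0.04), against 5 of the 16 (median 0.05). Of all 23 tested genes with either element, members included, 14, 14 and 16 were lower in siNFYB_A, siFOXM1_A and the pair, with medians of -0.03, -0.05 and -0.03. None of the 23 passed the threshold in these 3 comparisons.

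**Figure D4:**
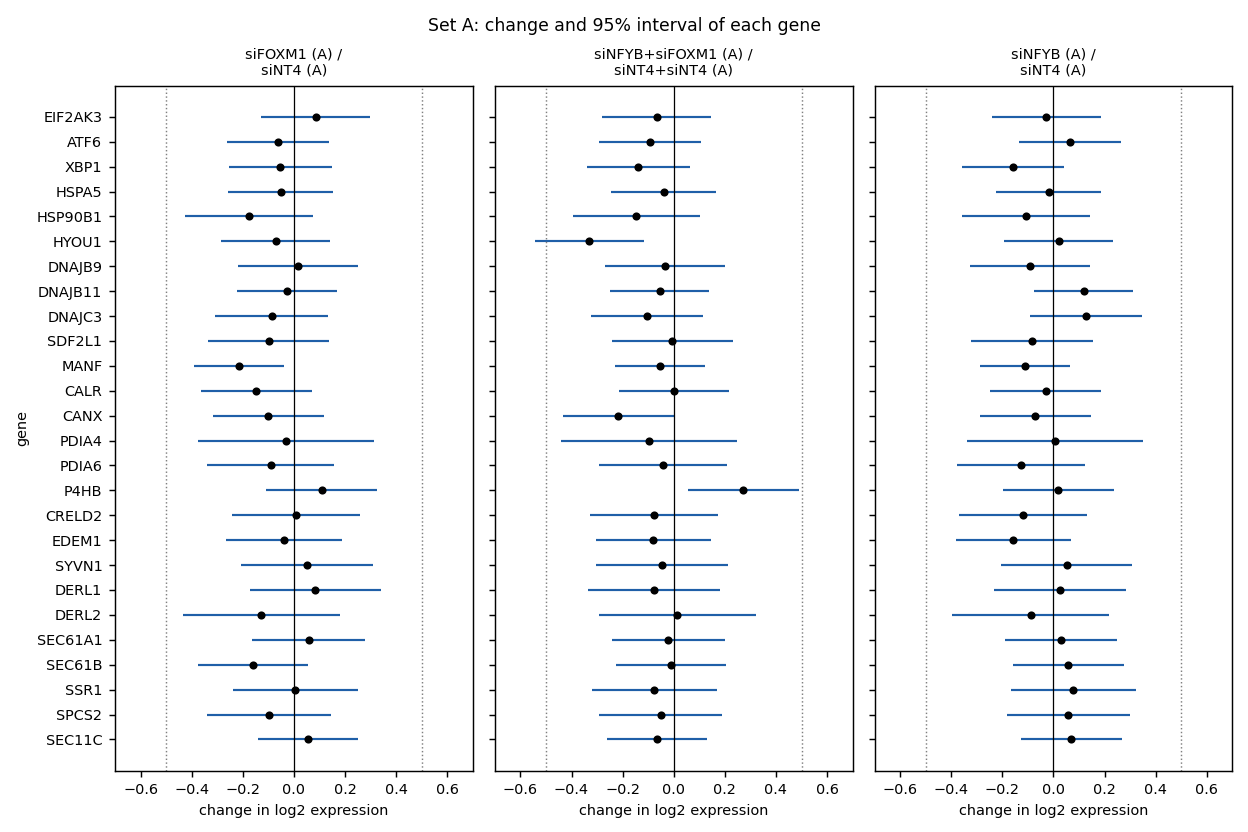
Log2 change (points) with its 95% interval (bars) of the 26 tested members in siFOXM1_A, siNFYB_A and siNFYB+siFOXM1_A against their controls, with dotted lines at -0.5 and 0.5. The intervals lie inside the lines for 26, 26 and 25 members (97.6%, 97.4% and 96.9% of all genes), the exception being HYOU1 in the pair.

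The pair was also set against the sum of its single effects. No member and 0 genes passed the adjusted threshold for a departure from additivity, and 0 members reached an unadjusted p under 0.05, against 1.98% of genes. The smallest p belonged to MANF, with a departure of 0.27 (SE 0.17), and to HYOU1, with -0.28 (SE 0.21). The siFOXM1_A and siNFYB_A groups did not differ from each other for any member past the threshold; 1 member, SEC61B at -0.22, reached an unadjusted p under 0.05, against 2.47% of genes. Between the controls siNT4+siNT4_A and siNT4_A, MANF differed by -0.15 with no overlap.

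In the first set, XBP1 lay below siNT4 in all 4 groups labelled with 1 target. TFDP1 was lower in both siTFDP1 and siATF5, and FOXM1 did not pass the threshold in siFOXM1. The groups therefore do not stand for 4 separate silenced targets. The siNT4 arrays were at 9.53, 9.57, 9.56 and 9.67. XBP1 was at 9.46, 9.30 and 9.30 in siHMGA1, at 9.46, 9.13 and 9.32 in siFOXM1, at 9.35, 9.45 and 9.28 in siTFDP1 and at 9.47, 9.32 and 9.50 in siATF5. No silenced array of these groups reached the lowest control array. The share of all genes wholly below the controls is given below for each group, and no share for all 4 groups together was counted. The differences were -0.23, -0.28, -0.22 and -0.15, and the first 3 had an unadjusted p under 0.05. None passed the adjusted threshold (limma adjusted p 0.297 to 1.00). The second XBP1 probe differed by -0.14, -0.30, -0.15 and -0.16. The 4 groups share the same 4 control arrays, so these are not independent differences. Of the siNT4+siNT4 arrays of the same set, the one at 9.54 lay among the siNT4 controls and the one at 9.43 among the silenced arrays, and the 3 siNT4_A arrays were at 9.36 to 9.44. In the pairs with these siRNAs XBP1 differed from siNT4+siNT4 by -0.04 in siHMGA1+siFOXM1, 0.05 in siHMGA1+siTFDP1, 0.00 in siHMGA1+siATF5 and -0.09 in siTFDP1+siATF5.

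**Figure D5:**
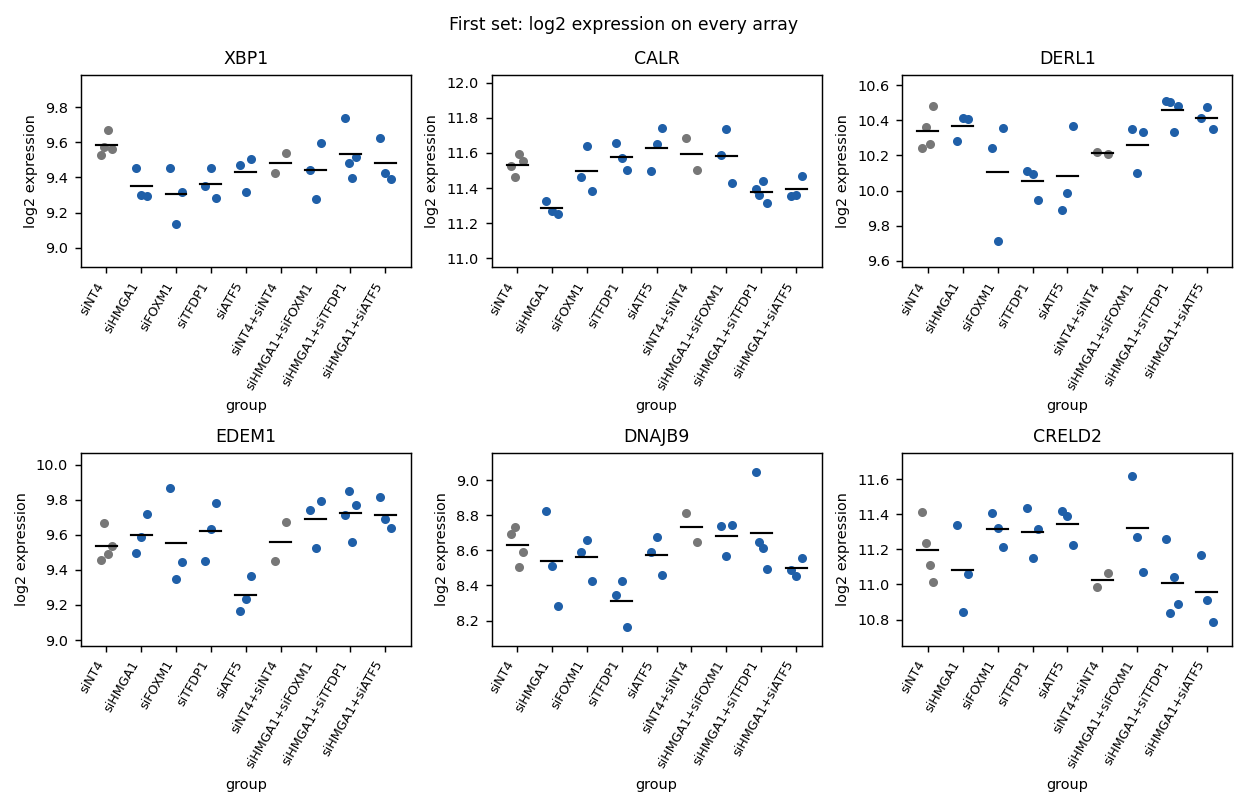
Log2 value of XBP1, CALR, DERL1, EDEM1, DNAJB9 and CRELD2 (vertical axes) on every fitted array of the 9 silenced and control groups of the first set other than siTFDP1+siATF5 (horizontal axis), with controls in grey, silenced groups in blue and a line at each mean. XBP1 is at 9.53 to 9.67 in siNT4 and at 9.13 to 9.50 in the 4 groups labelled with 1 target.

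After HMGA1 silencing, CALR was also below the controls, at 11.33, 11.27 and 11.25 against 11.52, 11.47, 11.55 and 11.59. The difference was -0.25 (SE 0.10, limma adjusted p = 1.00) and the groups did not overlap. XBP1 and CALR were the 2 members wholly below the controls (1.89% of genes), and EIF2AK3 (PERK) the 1 wholly above (1.65%), at 0.17 (SE 0.10). The 2 members with an unadjusted p under 0.05 compare with 2.13% of genes; HMGA1 itself made up the 0.0116% of genes that passed the threshold downward. Of the 26 members 17 were lower (52.9% of all genes) and the median was -0.02.

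On the first-set arrays labelled siFOXM1, XBP1 was the only member with an unadjusted p under 0.05, against 10.6% of genes. DERL1 differed by -0.23 (SE 0.12, limma adjusted p = 0.488), with arrays at 10.25, 9.71 and 10.36 against 10.24, 10.36, 10.48 and 10.26. The low array was replicate 2, on which 28.6% of probes were above background against 25.1% and 26.2% on the other arrays of the group. Without it and the siATF5 arrays that share this feature, the DERL1 difference was -0.04. PDIA6, a disulphide isomerase that bears an ERSE, differed by 0.20 (SE 0.12, limma adjusted p = 0.535). SPCS2 was the 1 member wholly above (3.47% of genes) and XBP1 the 1 wholly below (3.73%).

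The siFOXM1 effects of the 2 sets were compared directly. No member and 0 genes passed the adjusted threshold, and 0 members reached an unadjusted p under 0.05, against 4.81% of genes. The difference between the effects (set A minus first set) was 0.32 for DERL1, -0.29 for PDIA6 and 0.23 for XBP1 (limma adjusted p = 0.965 for each).

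After TFDP1 silencing, DNAJB9 had the smallest p, at 8.34, 8.42 and 8.17 against 8.69, 8.73, 8.51 and 8.59. The groups did not overlap, and the difference was -0.32 (SE 0.11, limma adjusted p = 0.231). DERL1 was at 10.11, 10.10 and 9.95 and differed by -0.29 (SE 0.12, limma adjusted p = 0.316). DERL1, DNAJB9 and XBP1 lay wholly below the controls (3 members, 6.37% of genes) and 0 members wholly above (4.70%). The same 3 members had an unadjusted p under 0.05, against 12.6% of genes, while 0.0116% of genes passed the adjusted threshold upward and 0.0696% downward. Of the 26 members, 13 were lower and the median was 0.01.

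The arrays labelled siATF5 had the most calls over all genes, 2.78% upward and 3.15% downward, and 0 members among them. EDEM1 came nearest, at 9.17, 9.23 and 9.36 against 9.46, 9.67, 9.49 and 9.54 in siNT4. The groups did not overlap, and the difference was -0.28 (SE 0.10, limma adjusted p = 0.0909). DERL1 differed by -0.26 (SE 0.12, limma adjusted p = 0.181), with arrays at 9.89, 9.99 and 10.37. SEC61B differed by 0.21 (SE 0.10, limma adjusted p = 0.196), with arrays at 13.14, 13.20 and 12.91 against 12.98, 12.77, 12.85 and 12.91.

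These 3 members with an unadjusted p under 0.05 compare with 23.8% of all genes. EDEM1 and XBP1 lay wholly below the controls (7.62% of genes) and 0 members wholly above (3.97%). The siATF5 replicates 1 and 2, on which DERL1 was low and SEC61B high, had 29.4% and 30.6% of probes above background, and replicate 3 had 25.4%. With that share as a covariate the differences were -0.14 for EDEM1, 0.06 for DERL1, -0.06 for SEC61B and 0.00 for XBP1. Without replicate 3 alone, EDEM1 (-0.34) and DERL1 (-0.40) passed the threshold, with adjusted p of 0.0369 and 0.0241; over all alternatives the adjusted p ran from 0.0369 to 0.999 for EDEM1 and from 0.0241 to 0.999 for DERL1.

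In the first-set pairs the control group held 2 arrays, so arrays fail to overlap more often by count alone, and all 4 pairs share these controls. For siHMGA1+siFOXM1, CRELD2, an ER protein with disulphide isomerase activity, was at 11.62, 11.27 and 11.07 against 10.99 and 11.06. Its lowest silenced array lay just above the controls, and the difference was 0.29 (SE 0.14, limma adjusted p = 0.575). HSP90B1 differed by -0.25 (SE 0.14) and MANF by -0.17 (SE 0.10), with limma adjusted p of 0.662 and 0.672. CRELD2 alone had an unadjusted p under 0.05, against 8.39% of genes. Arrays of 3 members lay wholly below (HSP90B1, MANF and PDIA4; 9.62% of genes) and of 2 wholly above (CRELD2 and SPCS2; 10.9%).

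For siHMGA1+siTFDP1, EIF2AK3 was at 8.86, 9.15, 9.08 and 9.14 against 8.76 and 8.90. The groups overlapped, and the difference was 0.23 (SE 0.11). DNAJC3, a cofactor that also inhibits PERK, was at 7.19, 7.31, 7.36 and 7.26 against 7.48 and 7.54. Its groups did not overlap (difference -0.23, SE 0.12), but DNAJC3 was above background on only 17 arrays, so its values lie near the lower limit. SEC11C differed by -0.20 (SE 0.10). The limma adjusted p was 0.999 for each. Wholly below the controls were 7 members, or 26.9% of them against 6.42% of genes: CALR, DNAJB11, DNAJC3, HSP90B1, SDF2L1, SEC11C and SEC61B. CANX and DERL1 lay wholly above (2 members, 5.89% of genes). Without the array labelled siHMGA1+siTFDP1 replicate 1, 8 members lay wholly below (14.9% of genes) and 4 wholly above (11.4%), and the differences were 0.29 for EIF2AK3, -0.20 for DNAJC3 and -0.21 for SEC11C. All 5 translocation members were lower with all arrays, with a median of -0.18, and 1 member reached an unadjusted p under 0.05, against 3.25% of genes.

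On the arrays labelled siHMGA1+siATF5, SEC61A1, the pore of the translocation channel, was at 10.64, 10.55 and 10.61 against 10.86 and 10.85. Every silenced array lay below both controls, and the difference was -0.26 (SE 0.12, limma adjusted p = 0.999). SEC11C differed by -0.20 (SE 0.11) and DNAJB9 by -0.23 (SE 0.13). Wholly below were 8 members, or 30.8% against 13.4% of genes, and wholly above were 4 (CANX, DERL1, HYOU1 and SYVN1), or 15.4% against 11.6%. SYVN1 is the HRD1 ubiquitin ligase. SEC61A1 alone had an unadjusted p under 0.05, against 4.17% of genes. SEC11C, CALR and DNAJC3 were below, and CANX and DERL1 above, in both of these pairs. The pairs share their 2 control arrays, and the share of all genes that recur in both was not counted.

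The fitted array of siTFDP1+siATF5 gave differences from -0.35 for CRELD2 to 0.42 for P4HB (SE 0.16, limma adjusted p = 0.999), assuming that it varies like the other groups. Next were DERL1 at 0.38 (SE 0.19) and MANF at -0.26 (SE 0.13). With 1 array, 13 members lay below both controls (32.5% of genes) and 10 above (34.3%), and 11 of 26 intervals lay within 0.5 units (61.7% of genes). 1 member had an unadjusted p under 0.05, against 2.99% of genes.

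The one member that passed the threshold anywhere did so between controls. EDEM1 was at 9.96, 9.98 and 9.78 in siNT4_A and at 9.46, 9.67, 9.49 and 9.54 in siNT4. It was higher in set A by 0.37 (SE 0.10, limma adjusted p = 0.0386), and the siNT4+siNT4_A arrays were as high, at 9.97, 9.93 and 9.87. Upward calls made up 2.18% of all genes and downward calls 0.754%. Over the alternatives the adjusted p ran from 0.00878 to 1.00, and the call was lost with all 45 arrays, with no filter, after quantile normalization or median centring, with the replicate block (0.34, adjusted p = 0.356) and without siNT4 replicate 1, 3 or 4 or siNT4_A replicate 1 or 2.

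SEC11C came next, at 11.44, 11.58 and 11.27 against 11.80, 11.70, 11.64 and 11.77, a difference of -0.30 (limma adjusted p = 0.0665), followed by DERL1 at -0.29 (adjusted p = 0.228). In all 5 members had an unadjusted p under 0.05, against 14.8% of genes, and 19 of 26 were lower in set A, with a median of -0.08. The 2 sets, and whatever differed between them in culture or hybridisation, cannot be told apart. Doubling the control siRNA gave 0 calls among members in either set. At an unadjusted p under 0.05 it gave 1 member in set A (DERL1 at 0.27, against 8.15% of genes) and 0 in the first set (3.12%).

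Genes of neighbouring pathways were read from wider lists. Tested were 10 of 14 genes of the integrated stress response, 19 of 25 further folding genes, 16 of 20 further degradation genes, 25 of 28 further translocation and glycosylation genes and 17 of 20 of COPII export from the ER. None passed the threshold in the 3 comparisons of set A. Across the first set 2 passed, both on the arrays labelled siATF5: ATF3, a stress-induced transcription factor, rose by 0.50 (SE 0.09, limma adjusted p = 0.00187) and LMAN1, a cargo receptor, by 0.37 (SE 0.10, limma adjusted p = 0.0304). Between the controls siNT4_A and siNT4, ERP29 (0.36) and PRKCSH (0.39) were higher in set A, and TRIB3 (-0.32) and UGGT1 (-0.39) lower, with limma adjusted p of 0.00752, 0.0438, 0.0189 and 0.0354.

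Between replicates and between groups the members varied about as much as other genes. Their median SD between replicates was 0.13, against 0.14 over all genes tested. With siTFDP1+siATF5 left out, the median range of their group means was 0.36, against 0.36 over all genes tested. MANF was the steadiest between replicates (SD 0.09) and PDIA4, close to the lower limit and above background on 37 arrays, the least steady (0.23). EDEM1 had the widest range of group means, 0.67 from siATF5 to siNT4+siNT4_A, and CANX the narrowest, 0.22.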

How the data were processed

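The deposited series table holds 1 column of log2 values per array, which the authors had processed. Their background correction, normalization and transformation are not stated in the labels or headers used here. Values near the lower limit may be compressed. Of 45013 probes, 28746 carry 1 gene symbol in the platform annotation, 8 several and 16259 none. A second deposited table of signal intensity and detection p-values (90 columns, named by chip position) was not used, because its columns could not be matched to samples. Groups follow the sample titles. A gene was represented by its brightest probe on average and was tested if that probe exceeded the array median by 0.5 log2 units on at least 3 arrays, which is called above background here. No filter or scaling was otherwise applied.

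A linear model with a mean per group was fitted to 44 arrays (29 residual degrees of freedom) with lmFit and eBayes of limma 3.58.1 in R 4.3.3, and contrasts were tested on both sides with Benjamini-Hochberg adjustment over 8625 genes. The procedure was tested on simulated data. The number of arrays limits the precision. In each comparison full values are given for members past an adjusted p of 0.05 or, where fewer than 3 passed, for the 3 of smallest p, and of neighbouring pathways at most 3 genes in each direction among those that passed. XBP1, HSPA5, MANF, HYOU1 and CANX were also described in comparisons where they fall outside this rule, chosen after their values were seen. Alternatives were other sets of arrays, filters, probe averages, normalizations, weights, a covariate, a replicate block and leaving out each replicate. The members and gene lists were chosen with earlier results of these data known. Correlations of the deviations of same-numbered replicates ran from -0.26 to 0.38. In no comparison with 3 pairs did every pair exceed 0.1, so the numbers were not taken as pairing the arrays; in siHMGA1+siFOXM1, with 2 pairs, they were 0.13 and 0.27. Promoter windows are RefSeq's, of build GRCh38.p14.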

Additional observations from a re-analysis of the deposited data

Results flagged for a closer look

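On the siTFDP1+siATF5 replicate 3 array, which the comparisons do not use, 20 of the 26 tested members lay outside the range of the other 44 arrays, 19 below and 1 above. ATF6, DNAJC3, PDIA4 and EDEM1 were each at 6.6335 there, and so were ERN1, PDIA3 and SEL1L, which were not tested. This is a single repeated low value on that array, so it does not give separate levels for these genes. HYOU1 was above, at 8.94 against at most 8.85 elsewhere. This array had 44.5% of probes above background, against at most 30.6% on the others; its part in these values was not tested.

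In the group siHMGA1+siTFDP1, DERL1 was at 10.33 on replicate 3 and at 10.48 to 10.51 on the other 3 arrays, a gap that is wide against the range of the group by Dixon's test at the 95% level. This was 1 of 52 such tests, of which chance alone gives about 1 in 20.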

How the results depend on the processing

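Of the values of named members under the alternatives, 918 kept their direction and side of the threshold. In siATF5 against siNT4, a covariate for the percentage of probes above background gave 0.059 for DERL1, -0.0595 for SEC61B and 0.00126 for XBP1, and leaving out the 3 arrays with over 28% of probes above background, chosen after seeing the data, gave 0.0288 for DERL1. HSPA5 in siNFYB_A became 0.00214 after quantile normalization and ran from -0.0623 to 0.0301 with a replicate left out, and in siNFYB+siFOXM1_A from -0.127 to 0.00788. With all 45 arrays, DERL1 in siTFDP1+siATF5 became -0.479, 13 members passed there and their median was -0.444, an alternative that brings in the array that stands apart; with a control left out that median ran from -0.0786 to -0.00422.

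The member count in siATF5 ran from 0 to 2 with a replicate left out, the 2 being EDEM1 and DERL1 without replicate 3. The median over members there was 0.00326 with the covariate and 0.0298 without the 3 arrays. In siFOXM1 it was 0.0247 without them and ran from -0.0675 to 0.0247 with a replicate left out. The same range was -0.0572 to 0.0135 in siHMGA1, -0.0222 to 0.0275 in siTFDP1, -0.034 to 0.0297 in siHMGA1+siFOXM1 and -0.0671 to -0.0233 in siHMGA1+siTFDP1. The count between siNT4_A and siNT4 was 0 with all 45 arrays, no filter, quantile normalization, median centring or the replicate block, 2 (with SEC11C) under the stricter filter, the probe mean or array weights, and 0 to 1 with a replicate left out. The replicate block changed no other member count. The cause of these shifts was not tested.

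Over all genes, the 512 calls in siATF5 became 4 with all 45 arrays, 103 within the set, 165 under the stricter filter, 298 after quantile normalization, 182 with weights, 2 with the covariate, 2 without the 3 arrays and 19 to 1747 with a replicate left out. The 253 between siNT4_A and siNT4 became 70 with all 45 arrays, 502 with weights, 87 with the block and 126 at the fewest with a replicate left out, and the 0 in siTFDP1+siATF5 became 4602 with all 45 arrays. The 3 between the controls of set A became 170 within the set, 133 with weights and 48 with the block. The 0 in siFOXM1 became 36 with weights and at most 93 with a replicate left out, the 1 in siHMGA1+siFOXM1 at most 66, and the 7 in siTFDP1 1 with all 45 arrays and 2 to 11 with a replicate left out. Values near the lower limit, among them DNAJC3, PDIA4 and NFYB, may be compressed, and siTFDP1+siATF5 rests on 1 array.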
